A study of Mus musculus with 34 samples.

Results

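RNA of the mouse hippocampus was compared between 4 h and 30 min after contextual fear conditioning, in which an animal learns to associate a chamber with a foot shock. The members are the 3 RNA libraries at 4 h and the 3 at 30 min, 6 of the 34 samples of the series, and each 4 h library was paired with the 30 min library of the same replicate number. All 11531 genes listed in the table of tissue RNA were tested. Every group came from C57BL/6N mice, housed singly and handled 3 min a day on 4 days. Conditioned mice explored the chamber for 148 s, received a foot shock of 2 s and went back to the home cage 30 s afterwards. Their hippocampi were frozen at 30 min or at 4 h, and the groups at 5 min and 10 min and the control group without stimulus, each with 3 RNA libraries, entered the same fit. Ribosome footprints (RPF), the mRNA fragments that ribosomes protect, were sequenced for the same 5 groups with 3 libraries each. The sources used here do not give age, sex or the number of mice behind a library. Nothing says whether replicates are separate animals, so the p-values cover only the spread of these libraries, which could be technical. The control group was handled but had no stimulus, and no group had the chamber or the shock alone. The labels therefore do not separate memory formation from other effects of the chamber, the shock or the hours between.

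Immediate-early genes are switched on by synaptic activity without new protein synthesis, through kinases that act on factors already bound at their promoters, such as CREB and the serum response factor. Their mRNAs and proteins are short-lived. Many encode transcription factors (Fos, Junb, Egr1, Nr4a1), others act at synapses (Arc) or end the signal that induced them (Dusp1). Genes that these factors switch on, among them secreted peptides and growth factors, form a later wave in hippocampal neurons.

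The signal is the deposited value of a gene in a library, a number of reads divided by 1 number per library. RNA libraries at 30 min held 25300011, 20850550 and 18007091 reads on listed genes in replicates 1 to 3, and those at 4 h held 23392418, 17860459 and 16814796. Over the 15 RNA libraries the median gene held 517 to 766 reads. Replicate 3 stood apart in every group by low RNA of the choroid plexus, the ventricular tissue that makes cerebrospinal fluid. The summed signal of 14 choroid plexus markers was 35.0 to 212 in the 5 libraries numbered 3 and 320 to 806 in the other 10. Markers of the hippocampus were listed and well covered, with summed signals of 8 CA1 pyramidal markers of 61.6 to 73.0 in control libraries.

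Promoters of 5 genes described below are shown to locate the cAMP response element (CRE), the motif that CREB and related factors recognise, and, in Kcnj2, another motif. They are RefSeq promoters of the build GRCm38.p6, 250 bases before to 50 bases after the annotated start of transcription, read 5′ to 3′ on the strand of the gene. Fos lies at chr12:85473640-85473939 (plus strand), Junb at chr8:84978699-84978998 (minus), Nr4a1 at chr15:101266596-101266895 (plus), Btg2 at chr1:134079106-134079405 (minus) and Kcnj2 at chr11:111065914-111066213 (plus). Capitals mark the core of the CRE, TGACG, on either strand (CGTCA when it lies on the other strand), the full palindromic CRE in Btg2, and the E-box CACGTG in Kcnj2.
Fos: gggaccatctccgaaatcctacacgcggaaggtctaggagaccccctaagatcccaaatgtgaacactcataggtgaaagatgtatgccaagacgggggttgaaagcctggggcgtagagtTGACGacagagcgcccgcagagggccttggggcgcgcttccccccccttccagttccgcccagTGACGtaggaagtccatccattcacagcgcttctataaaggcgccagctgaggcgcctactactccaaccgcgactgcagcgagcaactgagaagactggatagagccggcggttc
Junb: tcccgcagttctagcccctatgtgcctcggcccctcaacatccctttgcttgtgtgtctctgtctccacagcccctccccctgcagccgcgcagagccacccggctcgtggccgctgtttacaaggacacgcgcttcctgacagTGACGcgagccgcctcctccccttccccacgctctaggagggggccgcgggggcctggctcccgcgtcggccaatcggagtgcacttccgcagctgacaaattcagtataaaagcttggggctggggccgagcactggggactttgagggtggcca
Nr4a1: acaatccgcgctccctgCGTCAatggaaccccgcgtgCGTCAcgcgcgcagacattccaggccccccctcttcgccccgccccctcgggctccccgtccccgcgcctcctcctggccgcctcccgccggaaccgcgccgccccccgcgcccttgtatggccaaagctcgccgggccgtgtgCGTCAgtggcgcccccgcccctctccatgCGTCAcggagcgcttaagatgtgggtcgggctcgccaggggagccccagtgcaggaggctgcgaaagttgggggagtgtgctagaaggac
Btg2: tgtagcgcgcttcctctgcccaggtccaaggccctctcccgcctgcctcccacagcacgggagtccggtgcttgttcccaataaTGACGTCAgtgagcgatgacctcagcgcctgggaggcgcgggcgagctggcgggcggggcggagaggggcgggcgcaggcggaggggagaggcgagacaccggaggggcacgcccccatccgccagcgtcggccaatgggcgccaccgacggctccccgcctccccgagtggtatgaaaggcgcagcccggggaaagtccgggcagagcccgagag
Kcnj2: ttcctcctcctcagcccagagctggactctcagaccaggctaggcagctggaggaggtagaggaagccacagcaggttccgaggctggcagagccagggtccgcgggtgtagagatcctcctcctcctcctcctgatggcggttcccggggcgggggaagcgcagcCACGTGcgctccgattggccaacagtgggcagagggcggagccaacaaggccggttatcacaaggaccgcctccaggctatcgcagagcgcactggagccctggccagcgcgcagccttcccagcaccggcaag

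A CRE core was found at -129 and -66 bases from the start in Fos, at -106 in Junb and, on the other strand, at -233, -213, -69 and -40 in Nr4a1. All 3 of the genes called lower that have a promoter entry held it (2 of them on the given strand), and neither of the 2 genes called higher did. It is a common motif, found on either strand in 3486 of 11298 promoters of genes tested (30.9%), or in 3166 of 8725 genes (36.3%). The full CRE, found in 3.04% of the promoters, was in none of these 5 genes, and lay at -166 in Btg2, a gene just outside the threshold. The E-box CACGTG, which clock proteins and other basic helix-loop-helix factors bind, lay at -84 in Kcnj2 and was found in 9.98% of the promoters. The TATA box TATAAA, searched on both strands, lay at -33 in Fos and at 0, the annotated start itself, in Junb. It was found in 6.80% of the promoters. The serum response element, the glucocorticoid response element and the D-box, searched by name, were in none of the 5 genes within this window. The search could not find elements more than 250 bases before or 50 bases after the start. Arc and Egr1 had no promoter entry and were not searched. A motif match is a description of these letters and was not tested as a binding site.

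At 4 h, the RNA of 5 immediate-early genes was lower than at 30 min, and that of 2 other genes was higher. The lower genes were Fos, Nr4a1, Egr1, Junb and Arc, which fell by 30.5% (Arc) to 64.7% (Fos). The higher genes were Kcnj2 and Pdzd2, which rose by 36.6% and 31.5%. The 7 genes are 0.0607% of the 11531 tested (lower 0.0434%, higher 0.0173%) by limma with Benjamini-Hochberg adjustment over all genes, 2-sided, at 0.05, with the replicate number as a block. At an unadjusted p under 0.05, 274 genes were lower (2.38%) and 200 higher (1.73%). Most RNAs moved little between 30 min and 4 h: the median log2 change was -0.0036, 5% of genes lay below -0.145 and 5% above 0.125, and 6 genes exceeded 0.5 in size. In a bulk sample, fewer cells of a type and less RNA per cell cannot be told apart.

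**Figure D1:**
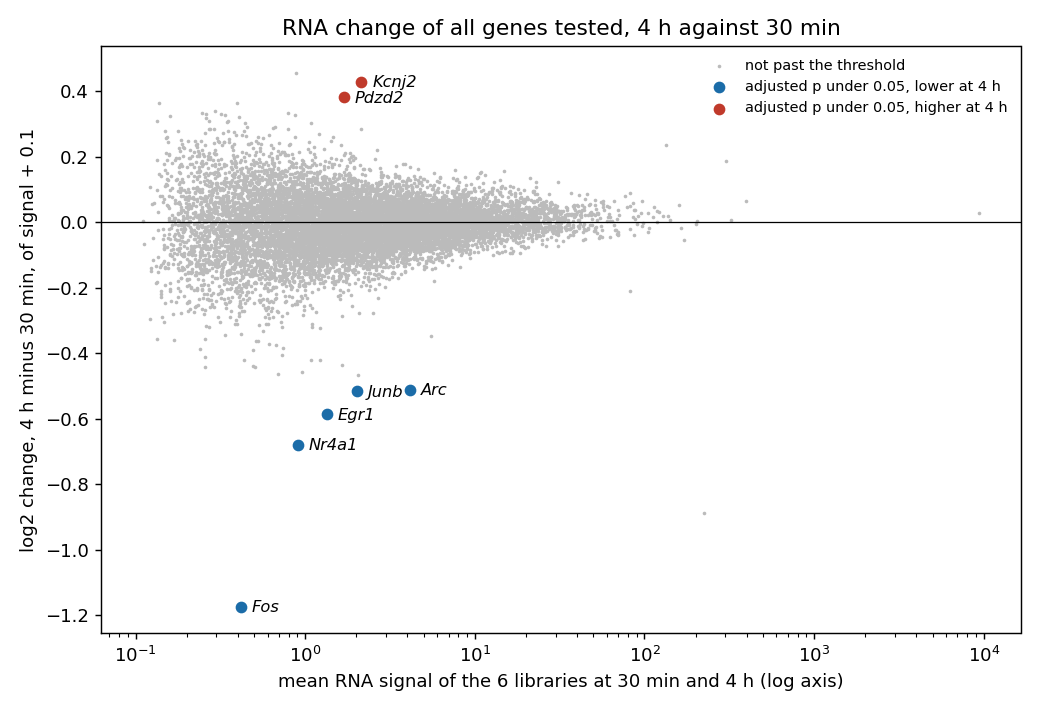
Each point is 1 of 11531 genes: the mean RNA signal of the 6 libraries at 30 min and 4 h (horizontal, log axis) against the log2 change in RNA from 30 min to 4 h (vertical, of signal + 0.1). Blue points are the 5 genes past the threshold and lower at 4 h, red points the 2 higher; the grey point near -0.89 at a signal above 200 is Ttr, which did not pass.

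Fos encodes a subunit of the transcription factor AP-1. Its RNA signal was 0.631, 0.660 and 0.554 in replicates 1 to 3 at 30 min and 0.190, 0.217 and 0.244 at 4 h. Every 4 h library lay below every 30 min library, as was so for 2.42% of all genes. These values rest on 160 to 236 reads per library at 30 min and on 61 to 65 at 4 h. The mean fell by 64.7%, from 0.615 ± 0.0548 to 0.217 ± 0.0274 (SD, n = 3), which is -1.17 on the log2 scale (SE 0.117, limma adjusted p = 1.05e-06). Within pairs the log2 change was -1.34, -1.26 and -0.92. The scale of signal + 0.1 understates the change of a gene as low as Fos.

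Junb, another subunit of AP-1, had an RNA signal of 2.25, 2.48 and 2.42 at 30 min and of 1.64, 1.68 and 1.58 at 4 h. The 3 libraries at 4 h lay close together and below all those at 30 min. Its log2 change was -0.52 (SE 0.0709, limma adjusted p = 1.73e-04).

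Egr1 encodes a zinc finger transcription factor used as a marker of synaptic plasticity. Its signal was 1.78, 1.52 and 1.60 at 30 min and 1.22, 1.06 and 0.887 at 4 h. The groups did not overlap, and replicate 3 at 4 h was the lowest. The log2 change was -0.59 (SE 0.092, limma adjusted p = 0.0015), and it was larger in pair 3 (-0.78) than in pairs 1 and 2 (-0.51 and -0.47).

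Nr4a1, an orphan nuclear receptor, had a signal of 1.09, 1.13 and 1.19 at 30 min and of 0.633, 0.712 and 0.673 at 4 h. The spread within each group was small against the gap between them. Its log2 change was -0.68 (SE 0.0894, limma adjusted p = 1.19e-04).

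Arc encodes a protein of dendrites and synapses that takes part in the removal of AMPA receptors and assembles into virus-like capsids. Its signal was 4.72, 5.20 and 4.70 at 30 min and 3.18, 3.44 and 3.53 at 4 h, without overlap. The mean fell by 30.5%, which is -0.51 on the log2 scale (SE 0.0679, limma adjusted p = 1.19e-04).

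Without the replicate block, 2 genes passed and both were lower, Fos and Nr4a1 (limma adjusted p of Arc 0.174 in that fit, the largest over its 18 alternatives). Without all RNA libraries numbered 3, those with little choroid plexus RNA, 3 lower and 0 higher genes passed, and Junb and Egr1 did not. Egr1 was also lost without 4 h replicate 3.

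**Figure D2:**
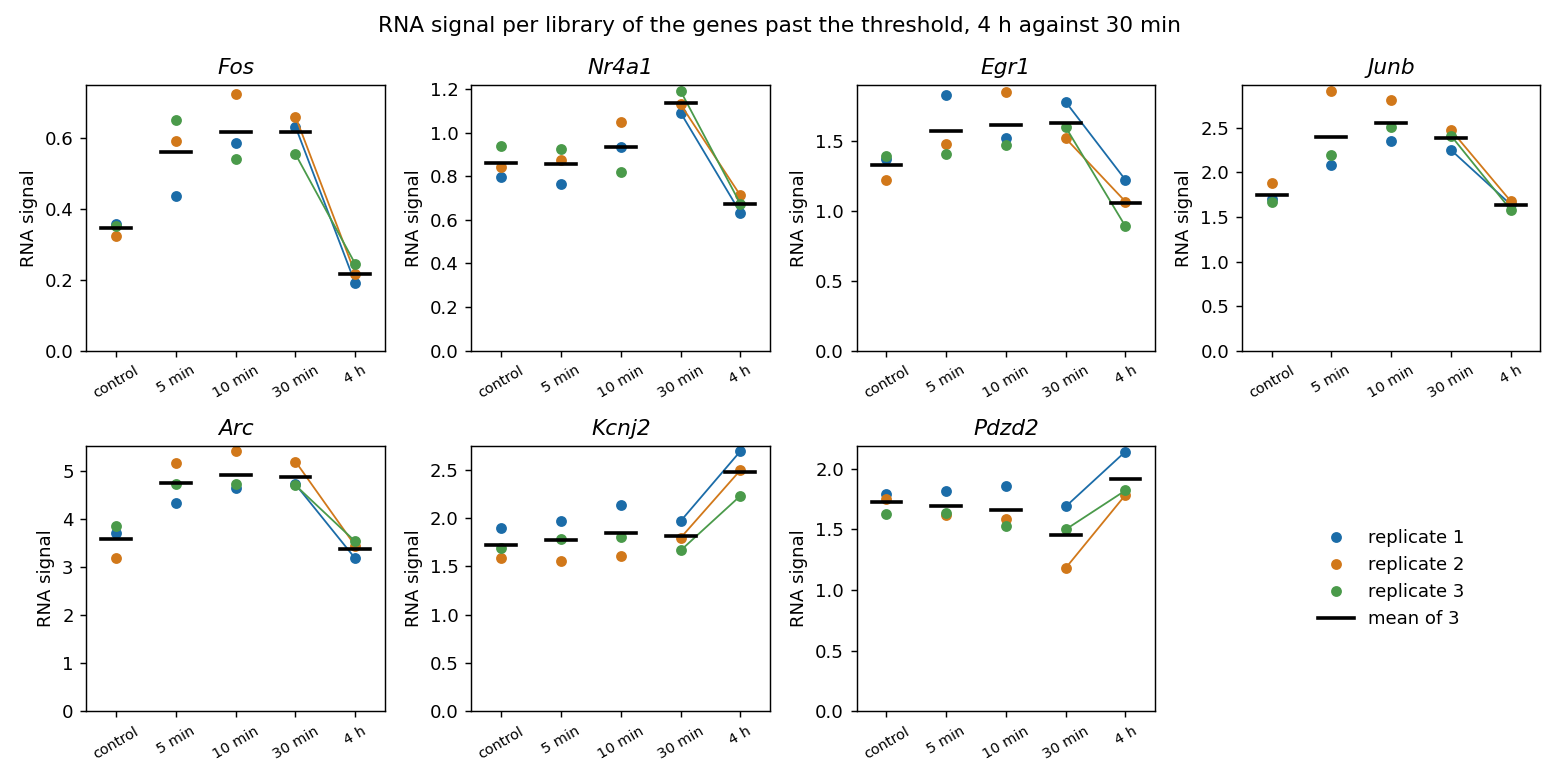
RNA signal (vertical, linear from 0) of the 7 genes past the threshold in each of the 15 tissue RNA libraries, by time (horizontal). Points are libraries coloured by replicate number, black bars means of 3, and lines join the pairs compared; in Fos, Nr4a1, Egr1, Junb and Arc all 4 h points lie below all 30 min points, and in Kcnj2 and Pdzd2 all lie above.

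The control libraries and those at 5 min and 10 min show where both groups stood. As this sets the same libraries beside further ones, it is a description without a test. Fos had a mean signal of 0.344 in control, 0.559 at 5 min, 0.616 at 10 min, 0.615 at 30 min and 0.217 at 4 h. Its level at 30 min was thus above all 3 control libraries (0.324 to 0.356), and its level at 4 h was below all of them. Junb went from 1.75 in control through 2.40, 2.56 and 2.38 to 1.63. Arc went from 3.58 through 4.74, 4.93 and 4.87 to 3.39. For these 3 genes the means at 5 min, 10 min and 30 min all lay above control. Nr4a1 was 0.858 in control, 0.854 at 5 min, 0.935 at 10 min, 1.14 at 30 min and 0.672 at 4 h, so that its level at 5 min was near control. Egr1 was 1.33, 1.57, 1.61, 1.63 and 1.06 in the same order. In all, the mean at 30 min exceeded the range of the 3 control libraries in 5 of 5 lower genes, against 2156 of 11531 genes tested. The mean at 4 h lay below that range in 4 of the 5 and within it in Arc, whose control libraries ran from 3.19 to 3.86. Among all genes tested it lay below in 1223. The 5 genes were chosen by the difference between these times, which favours a high mean at 30 min and a low one at 4 h. Of the 274 genes lower at an unadjusted p under 0.05, 115 were above the control range at 30 min and 125 below it at 4 h.

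Kcnj2 encodes the inward rectifier potassium channel Kir2.1, which holds the resting potential of neurons, glia and vascular cells near the potassium equilibrium. Its RNA signal was 1.97, 1.79 and 1.66 at 30 min and 2.69, 2.49 and 2.23 at 4 h. All 4 h libraries were above all 30 min libraries (1.63% of all genes), and the pairs differed by 0.43, 0.45 and 0.40 on the log2 scale. The fitted log2 change was 0.43 (SE 0.0707, limma adjusted p = 0.0029). The mean at 4 h, 2.47 ± 0.232 (SD, n = 3), also exceeded every control library (1.58 to 1.89), while the mean at 30 min, 1.81, lay within the control range. Among 47 genes of potassium channels tested, Kcnj2 was the only one past the threshold. The list as a whole stayed around 0, with a median log2 change of 0.0005 and 24 of 47 above 0. After Kcnj2, the voltage-gated channel gene Kcna4 had the smallest p (4.51 to 4.95, log2 change 0.14, limma adjusted p = 0.999).

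Pdzd2, a gene for a protein with many PDZ domains, was on the list of dentate granule cell markers. Its signal was 1.69, 1.18 and 1.50 at 30 min and 2.14, 1.78 and 1.82 at 4 h. Replicate 2 at 30 min was the lowest library, and the groups did not overlap. The log2 change was 0.38 (SE 0.0758, limma adjusted p = 0.0405). Here the mean at 30 min (1.46) lay below the range of the control libraries (1.63 to 1.79) and the mean at 4 h (1.91) above it. Of the 12 dentate markers tested, 7 were above 0 (47.9% of all genes) and the median was 0.05 (0.012 without 4 h replicate 2 and 0.097 without 4 h replicate 1). At an unadjusted p under 0.05, 3 were higher (1.73% of all genes), and 5 were higher in all 3 pairs (12.5%). Their summed signal was 57.5, 51.7 and 52.4 in replicates 1 to 3 at 30 min and 59.0, 53.2 and 53.9 at 4 h, higher in each pair. The part of dentate granule cells in the Pdzd2 value was not tested.

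Both higher calls were less stable than the lower ones under other settings. Kcnj2 passed in 12 of 18 alternatives and Pdzd2 in 7 of 18, and each lost its call when single libraries were left out (Kcnj2 without 30 min replicate 1, 30 min replicate 3 or 4 h replicate 2; Pdzd2 in every case except 30 min replicate 3).

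The gene with the next smallest p in this direction was Eltd1, and it did not pass. Eltd1, which encodes an adhesion receptor of blood vessels, had a signal of 0.810, 0.626 and 0.740 at 30 min and 1.07, 1.17 and 0.861 at 4 h. The groups did not overlap, and the log2 change was 0.46 (SE 0.113, limma adjusted p = 0.37). It was 0.28 without replicate 2, 0.60 without 4 h replicate 3 and 0.24 with a pseudocount of 1. Markers of endothelial cells and pericytes, the cells of capillary walls, were above 0 in 10 of 11 (47.9% of all genes), with a median of 0.07. None passed, and 4 were higher at an unadjusted p under 0.05 (1.73% of all genes). The carrier gene Slco1a4 went from 1.69 to 1.99 and the abundant marker Vtn from 4.39 ± 0.544 to 4.91 ± 0.469 (SD, n = 3). The summed signal of the 11 markers was 16.6, 14.2 and 14.8 in replicates 1 to 3 at 30 min and 17.8, 16.1 and 15.4 at 4 h. It was higher at 4 h in each pair, although the groups overlapped, and it was 14.8 to 17.3 in control. The part of vascular cells in the Kcnj2 and Eltd1 values was not tested.

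**Figure D3:**
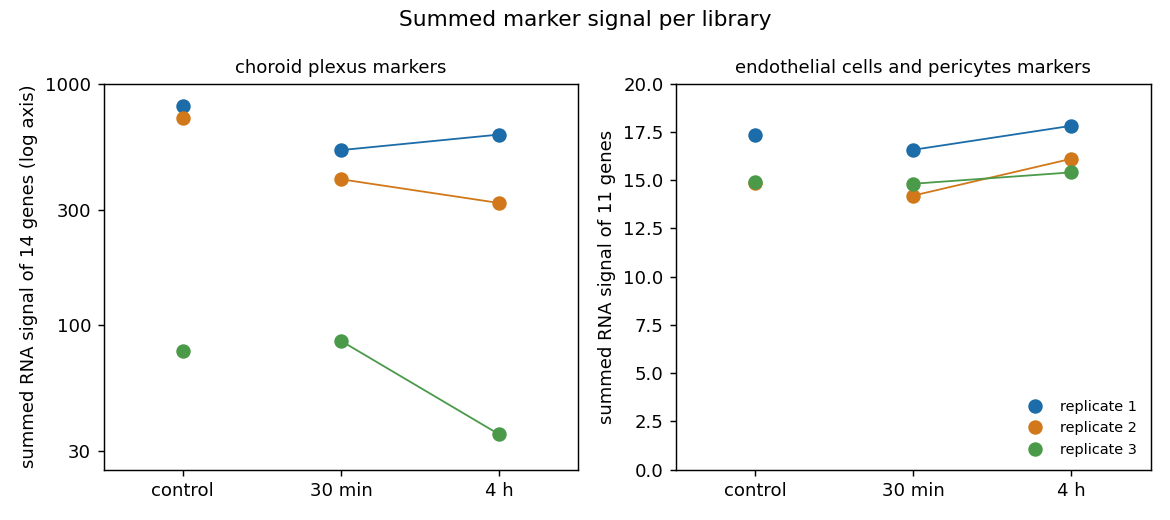
Summed RNA signal of 14 choroid plexus markers (left, log axis) and of 11 markers of endothelial cells and pericytes (right, linear from 0) in each library at control, 30 min and 4 h. Points are libraries coloured by replicate number and lines join the pairs; the choroid plexus sum goes up in pair 1 and down in pairs 2 and 3, and the vascular sum goes up in all 3.

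Most of the early transcription factor genes tested had less RNA at 4 h than at 30 min, and some passed the test. The list named 28 genes, of which 18 were tested. Of these 18, 4 passed the test (Fos, Nr4a1, Junb and Egr1), all lower, where 0.0434% of all genes were lower. The median log2 change was -0.16, against -0.0036 over all genes, 15 of 18 were below 0, and 10 were lower in all 3 pairs, as were 13.9% of all genes. The other members tested did not pass. Nr4a2, a relative of Nr4a1, went from 2.07 ± 0.106 to 1.72 ± 0.166 (SD, n = 3), without overlap, and Nr4a3, the third of that family, from 0.657 ± 0.0506 to 0.564 ± 0.0439, with overlap. Fosb, another AP-1 subunit, went from 0.179 to 0.141, lower in all pairs and without overlap (log2 change -0.21, limma adjusted p = 0.999). Npas4, a factor induced by calcium entry in neurons, went from 0.203 to 0.169, Egr3 from 0.595 to 0.534, Ier2 from 0.201 to 0.172 and Klf10 from 1.67 to 1.61, all with overlap. Jun, the AP-1 partner of Fos, stood at 3.41 and 3.47.

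Genes for early feedback and signalling proteins were a second group. Of 33 tested, Arc passed, and 27 were below 0 (52.1% of all genes) with a median of -0.11. At an unadjusted p under 0.05, 13 were lower (2.38% of all genes) and none higher (1.73%), and 15 were lower in all 3 pairs (13.9%). Btg2, an antiproliferative gene that recruits the enzymes that shorten mRNA tails, was nearest to the threshold. Its signal was 1.81, 2.08 and 1.85 at 30 min and 1.37, 1.33 and 1.46 at 4 h, without overlap (log2 change -0.44, SE 0.0914, limma adjusted p = 0.074). It passed in 3 of 18 alternatives. Dusp1, a phosphatase that switches off MAP kinases, went from 0.842 ± 0.026 to 0.614 ± 0.0762 (SD, n = 3; log2 change -0.41, limma adjusted p = 0.493). Dusp6, a phosphatase of ERK, went from 3.73 to 3.31, the kinase gene Sik1 from 0.656 to 0.539, and the stress-response gene Gadd45b from 0.608 to 0.449. These 4 genes did not overlap between the groups (2.42% of all genes). Gadd45g went from 0.820 to 0.731, with overlap. Among members above 0 were the scaffold gene Homer1, at 16.8 ± 0.905 and 17.9 ± 1.03 (SD, n = 3), and Ptgs2, which makes prostaglandins, at 2.47 and 2.60, both with overlap.

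The later wave of activity-regulated effectors showed no gene past the threshold in either direction among 28 tested. Their median was 0.03, and 17 were above 0 (47.9% of all genes). At an unadjusted p under 0.05, 2 were lower (2.38% of all genes) and none higher (1.73%). Bdnf, the neurotrophin needed for lasting plasticity, had a mean signal of 4.02 ± 0.167 at 30 min and 4.10 ± 0.316 at 4 h (SD, n = 3), which differ by 0.03 on the log2 scale (SE 0.06, limma adjusted p = 0.999). Nptx2, a pentraxin that gathers AMPA receptors, stood at 3.36 and 3.65, the prohormone convertase gene Pcsk1 at 3.27 and 3.35, and Nrn1 at 21.7 and 22.7. The neuropeptide precursors Vgf and Scg2 stood at 4.02 and 3.92 and at 22.7 and 23.3. All 6 overlapped between the groups. The smallest p-values of the list belonged to Gpr3, a receptor that raises cAMP (0.285 to 0.196, limma adjusted p = 0.999), and Plat, the tissue plasminogen activator (4.31 to 3.92, limma adjusted p = 0.999).

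Genes that follow corticosteroids and the time of day were examined as further lists. Among 27 glucocorticoid-responsive genes none passed, and 6 were lower (2.38% of all genes) and 1 higher (1.73%) at an unadjusted p under 0.05. Of these 6, Dusp1, Arl4d and Errfi1 were also on the list of early feedback and signalling genes and were counted there. The median of the glucocorticoid list was -0.04, with pair medians of 0.02, -0.15 and 0.02, and it ran from -0.087 to 0.0098 when libraries were left out. Sgk1, a kinase induced by corticosteroids, went from 6.19 ± 0.642 to 4.84 ± 0.441 (SD, n = 3; log2 change -0.35, limma adjusted p = 0.493), without overlap. Ddit4, an inhibitor of mTOR complex 1, went from 1.25 to 0.921 (log2 change -0.42, limma adjusted p = 0.37), with overlap. Fkbp5, a chaperone of the glucocorticoid receptor, stood at 2.52 and 2.66, Tsc22d3 at 6.95 and 7.23, and Cdkn1a at 0.123 and 0.135. Among 20 circadian clock genes none passed, and the median was 0.02. Per3, a repressor of the clock, went from 1.93 to 2.35 (log2 change 0.28, limma adjusted p = 0.493), higher in all 3 pairs (as were 12.5% of all genes), and Npas2, an activator, from 1.86 to 2.04. The other clock genes stood level: Per1 at 1.07 and 1.05, Per2 at 1.53 and 1.59, Dbp at 3.16 and 3.12, Nr1d1 at 3.68 and 3.76 and Arntl at 1.85 and 1.77. The sources used here do not give the hour of day at which mice were taken.

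The remaining lists held no gene past the threshold, and apart from a list of 1 gene their medians lay within 0.05 of 0. For signalling these were the genes of the cAMP and CREB pathway (21 tested, median 0.03, with Crtc2 at 0.307 and 0.391 and Crebbp at 4.14 and 4.44) and of MAP kinase and calcium signalling (27, median -0.01, with Rps6ka2 at 4.15 and 3.86 and Mef2c at 12.1 and 13.1). For synapses they were glutamate receptors (18, median -0.0011, with Grik4 at 2.40 and 2.18 and Grin2a at 23.3 and 24.5), postsynaptic scaffolds (25, median 0.02, with Shank1 at 3.62 and 4.08), synaptic vesicles (25, median -0.02, with Slc17a6 at 3.31 and 3.62 and Rab3a at 12.1 and 11.4) and GABA synapses (22, median 0.02, with Slc6a11 at 6.88 and 6.59 and Gad1 at 9.82 and 10.2). For protein folding and lipids they were heat shock and unfolded protein genes (25, median -0.0044, with Atf4 at 5.88 and 5.32 and Pdia3 at 8.35 and 9.18) and cholesterol synthesis (20, median -0.04, with Hsd17b7 at 1.90 and 1.71 and Fdft1 at 4.20 and 3.92). In each case the first value is the mean at 30 min and the second that at 4 h. Oxidative phosphorylation genes were below 0 in 52 of 74 (median -0.02, with Ndufv3 at 6.65 and 6.12 and Ndufa1 at 2.99 and 2.65) and proteasome genes in 23 of 30 (median -0.03, with Psma4 at 3.52 and 3.16 and Psma5 at 2.77 and 2.48), where 52.1% of all genes were below 0. The list of long noncoding RNAs had 1 gene tested, Snhg11, at 9.73 and 10.8.

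**Figure D4:**
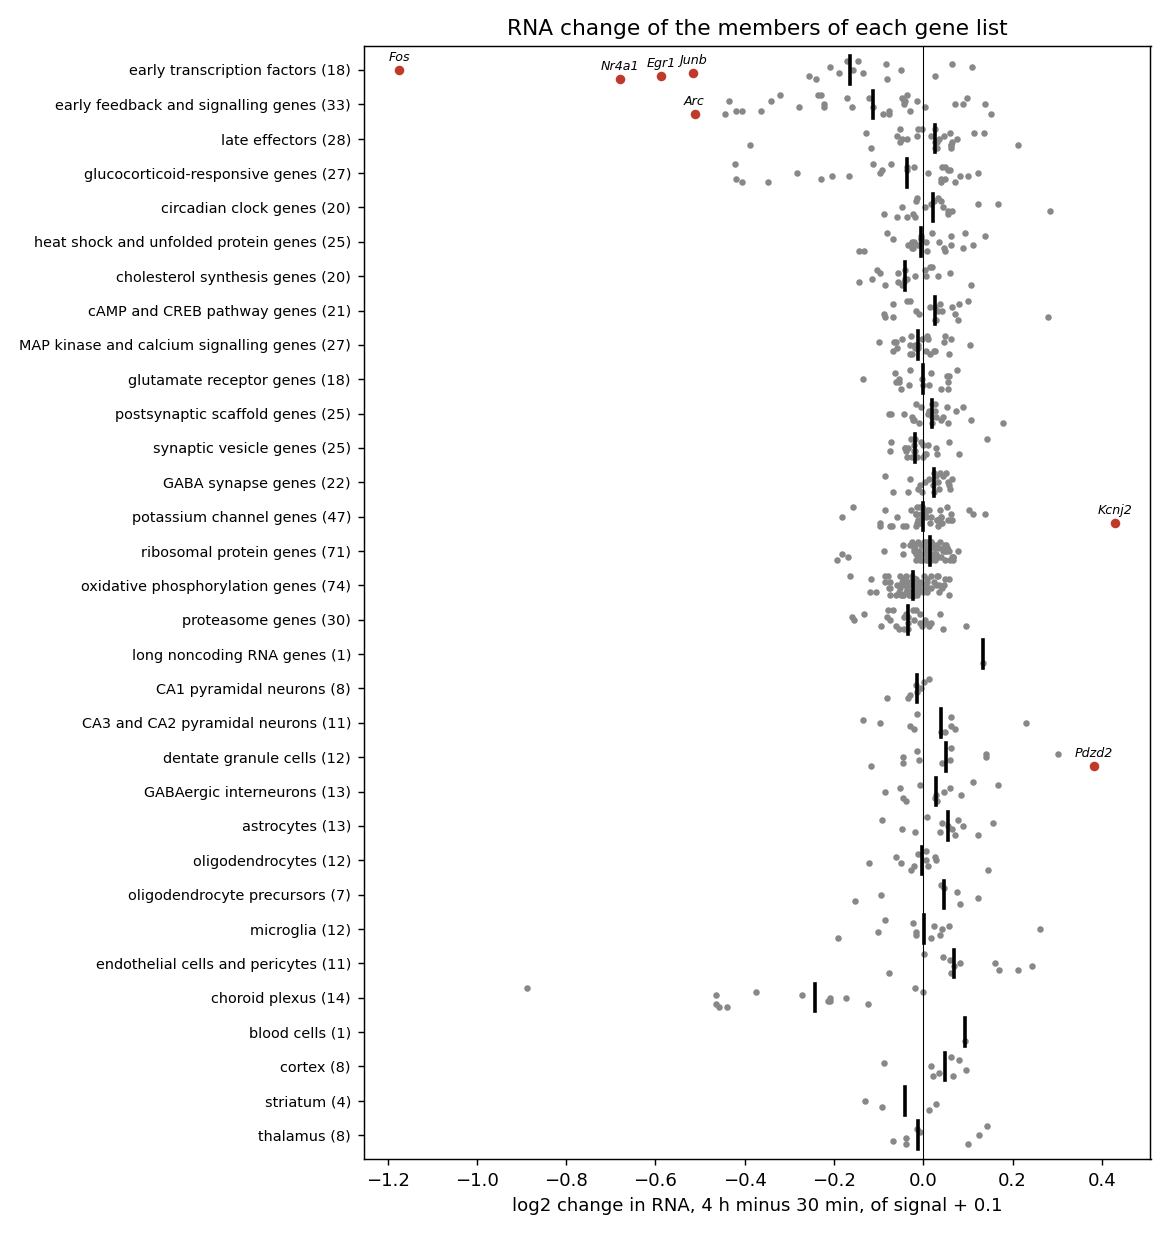
Log2 change in RNA from 30 min to 4 h (horizontal, of signal + 0.1) of every tested member of each list (rows, with the number tested). Grey points did not pass and red points did, and black bars are list medians; the early lists reach to -1.17, the medians of early transcription factors (-0.16) and choroid plexus markers (-0.24) are the lowest, and most other medians lie near 0.

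Apart from markers of the choroid plexus, and from the dentate and vascular markers described above, cell type markers moved little. Medians were -0.01 for CA1 pyramidal neurons (8 tested), 0.04 for CA3 and CA2 (11), 0.03 for GABAergic interneurons (13), 0.06 for astrocytes (13), -0.0026 for oligodendrocytes (12), 0.05 for their precursors (7) and 0.0008 for microglia (12). For neighbouring regions they were 0.05 for cortex (8), -0.04 for striatum (4) and -0.01 for thalamus (8), and the 1 blood gene tested had 0.09. No marker of these lists passed. All 14 choroid plexus markers were below 0, with a median of -0.24, and none passed; 4 were lower at an unadjusted p under 0.05 (2.38% of all genes). That median rested on single libraries: it was -0.041 without 4 h replicate 3 and -0.52 without 4 h replicate 1. Their pair medians were 0.21, -0.22 and -0.68, so the direction differed between the pairs. Ttr, the thyroxine carrier of this epithelium, had an RNA signal of 353, 293 and 46.3 at 30 min and of 408, 229 and 8.03 at 4 h. It was higher at 4 h in pair 1 and lower in pairs 2 and 3, most so in pair 3 (log2 change -2.51 within that pair; fitted -0.89, limma adjusted p = 0.999). Its fitted change was -0.044 without 4 h replicate 3 and -1.51 without 4 h replicate 1.

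Footprints at the same times were set beside the RNA to see whether both readouts moved. They come from other libraries of the same groups, and 7 genes (0.0607%) were lower and 0 (0%) higher at 4 h than at 30 min by the same limma fit; 404 were lower (3.5%) and 166 higher (1.44%) at an unadjusted p under 0.05. All 5 genes with lower RNA also had lower footprints. The labels do not say whether RNA and footprint libraries of the same number share tissue, so this is not an independent check. The 4 h signal of Ttr in replicates 1 to 3 was 408, 229 and 8.03 in RNA and 1104, 724 and 22.4 in footprints. Fos footprints went from 1.06 ± 0.0789 to 0.237 ± 0.0197 (SD, n = 3), which is -1.78 on the log2 scale (SE 0.121, limma adjusted p = 6.05e-08). Arc footprints were 8.32, 7.76 and 7.74 at 30 min and 4.51, 4.06 and 3.70 at 4 h (log2 change -0.95, limma adjusted p = 2.77e-06). The footprint changes of Nr4a1, Junb and Egr1 were -1.14, -0.73 and -0.61. Dusp1, whose RNA did not pass, passed in footprints (0.980 to 0.578, log2 change -0.67, limma adjusted p = 0.0119). Kcnj2 footprints were 1.02, 0.887 and 0.808 at 30 min and 1.39, 1.35 and 1.15 at 4 h, without overlap, and did not pass (log2 change 0.48, limma adjusted p = 0.073). Pdzd2 footprints went from 1.05 to 1.22 (limma adjusted p = 0.999).

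Whether the footprint change differed from the RNA change was tested as an interaction over the 30 tissue libraries. Replicate number was a block within each kind of library, and RNA and footprint libraries of the same number and time were not paired. By limma 0 of 11531 genes passed (0%), with 299 at an unadjusted p under 0.05 (2.59%). The difference in log2 change was -0.60 (SE 0.176) for Fos, -0.43 (SE 0.117) for Arc and -0.46 (SE 0.151) for Nr4a1, each with limma adjusted p = 1. It was -0.21 (SE 0.106) for Junb and -0.02 (SE 0.122) for Egr1. The pseudocount moves the log2 change of low genes such as Fos toward 0 in both readouts, by amounts that depend on the signal. Without it, the ratio of the 4 h mean to the 30 min mean of Fos was 0.353 in RNA and 0.2245 in footprints. For Arc the ratios were 0.695 and 0.515. The part of the pseudocount in the differences was not tested.

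**Figure D5:**
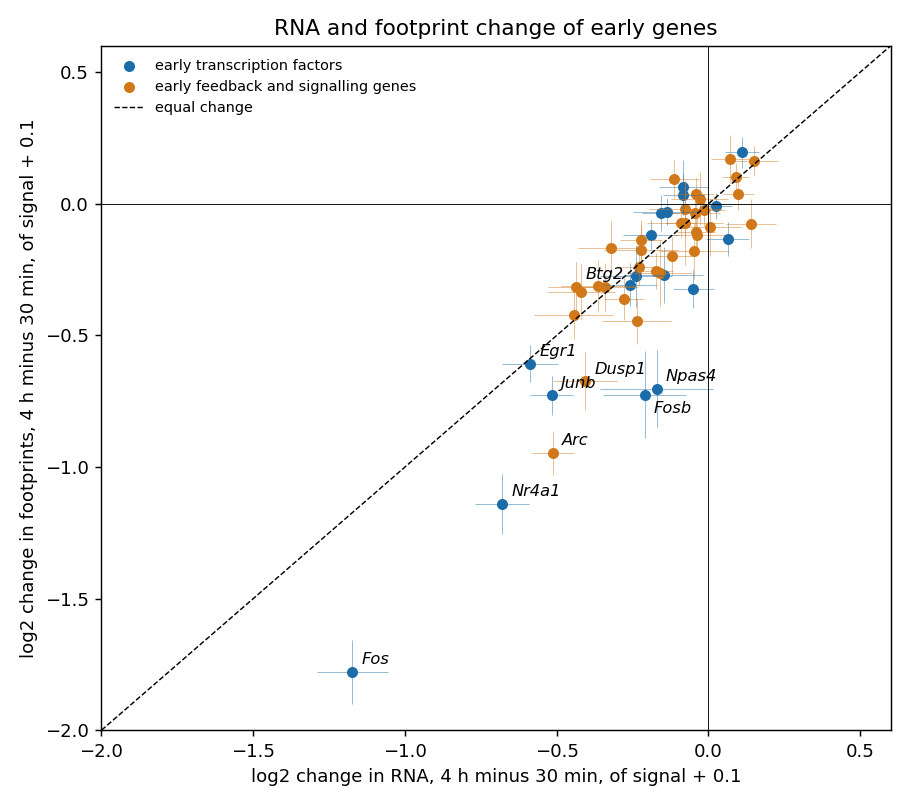
Log2 change from 30 min to 4 h in RNA (horizontal) against that in footprints (vertical), both of signal + 0.1, for the 18 early transcription factor genes (blue) and the 33 early feedback and signalling genes (orange). Thin bars are model standard errors and the dashed line marks equal change; Fos lies at -1.17 in RNA and -1.78 in footprints, and Arc at -0.51 and -0.95.

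Ribosomal protein genes lay near 0 in RNA and mostly below 0 in footprints. Their RNA changes had a median of 0.01 and 22 of 71 were below 0, against 52.1% of all genes. The footprint changes of the same genes had a median of -0.13 and 68 of 71 were below 0, against 55.5% of all genes and a median of -0.01. No single gene of the list passed in either readout or in the interaction. At an unadjusted p under 0.05, 44 of the 71 had lower footprints (3.5% of all genes) and none higher (1.44%), and 33 had a footprint change below their RNA change and none above it (2.59% of all genes in either direction). In RNA the smallest p-values of the list belonged to Rps16 (2.46 ± 0.756 to 2.11 ± 0.477, SD, n = 3) and Rpl26 (0.851 ± 0.161 to 0.760 ± 0.261), both with overlap. Ribosomal protein genes have many near-identical copies in the genome, and the sources used here do not say how reads that match several places were counted.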

How the data were processed

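RNA-seq and ribosome profiling libraries of mouse hippocampus were used, and those of cultured cells and embryonic stem cells were not used here. Per the submitters' processing notes, reads were handled with CASAVA 1.8.2 and Bowtie 1.1.1 on mm9. The deposited signal values are whole reads divided by 1 number per library (100% of values within 0.001 reads of a whole number). The sources used here do not say what the divisor stands for or how reads on several genes or strands were counted. RNA libraries held 16814796 to 25515210 reads on the 11531 listed genes, and Gm20594 took 12.0 to 15.5% of them.

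Signals were tested as log2(signal + 0.1) with limma 3.58.1 in R 4.3.3 (lmFit, eBayes with a trend) over all 15 libraries of a kind with a mean signal of at least 0.1, which all genes passed, with group and replicate number as terms. The test was run on simulated data first. Same-numbered libraries at 30 min and 4 h deviated together (correlations 0.755, 0.490 and 0.671; other combinations -0.590 to -0.0821), so the number was taken as a pairing found in the data. P-values were adjusted by Benjamini-Hochberg over all genes, with a threshold of 0.05. Named genes were the 12 largest called changes per direction that moved the same way in all pairs (or the 3 smallest p-values where fewer than 3 passed), a panel of activity, stress and clock genes, the called or 2 smallest-p members of each list and leading cell type markers. The members and lists were chosen with earlier results of these data known. Alternatives changed the block, pseudocount, filter, scaling, variance model and libraries used.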

Additional observations from a re-analysis of the deposited data

How the results depend on the processing

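Of the 7 called genes, Fos and Nr4a1 passed in all 17 alternatives that tested them (both fall under a mean signal of 1), Arc in 17 of 18, Junb in 16 and Egr1 in 15. Leaving out the filter repeats the fit as reported, since all genes passed it, and is not counted. Pseudocounts of 1 and 0.01, TMM scaling (own code) and median scaling kept all 7. Without the replicate block 2 genes were lower and 0 higher. With a mean of at least 1, 8061 genes were tested and 3 were lower and 1 higher, and voom gave 1 higher. The 6 libraries alone gave 7 lower and 3 higher, adding 1200014J11Rik, Btg2 and Sgk1. Leaving out 1 library at 30 min or 4 h, or all libraries of a number, gave 3 to 8 lower and 0 to 1 higher genes. In footprints, 4 genes were lower without the block, and a pseudocount of 1 gave 1 higher gene and 1 gene lower in the interaction. The planned count-model fits were not run, because the recovered reads, whose divisor is of unknown meaning, could not be established as raw counts. The cause of these shifts was not tested.

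The median of early transcription factors was -0.058 with a pseudocount of 1, -0.082 with a mean of at least 1 and -0.23 by voom, and that of early feedback genes -0.075 with a pseudocount of 1. With a mean of at least 1 the striatum median was 0.013 and the thalamus median -0.023. Leaving out libraries gave medians of -0.16 to -0.11 for early feedback genes, -0.0065 to 0.066 for late effectors, 0.0039 to 0.039 for the cAMP and CREB pathway, -0.013 to 0.056 for GABA synapses, -0.017 to 0.036 for potassium channels, -0.027 to 0.058 for ribosomal protein genes, -0.042 to 0.020 for CA1, -0.026 to 0.052 for CA3 and CA2, -0.060 to 0.069 for oligodendrocytes, -0.025 to 0.064 for microglia, 0.073 to 0.13 for endothelial cells and pericytes, 0.011 to 0.081 for cortex, -0.082 to -0.013 for striatum and -0.029 to 0.038 for thalamus. For lists that moved by less than the SD of the 3 pair medians, the ranges were -0.52 to -0.041 for choroid plexus, -0.087 to 0.0098 for glucocorticoid-responsive genes, -0.068 to 0.0027 for cholesterol synthesis, -0.073 to 0.010 for the proteasome, -0.042 to 0.0022 for oxidative phosphorylation, -0.014 to 0.021 for heat shock genes, -0.026 to 0.0031 for MAP kinase and calcium signalling, -0.047 to 0.038 for glutamate receptors, -0.0076 to 0.045 for postsynaptic scaffolds, -0.034 to 0.0081 for synaptic vesicles, -0.0053 to 0.10 for astrocytes, -0.0056 to 0.056 for interneurons, 0.012 to 0.097 for dentate cells, 0.012 to 0.091 for oligodendrocyte precursors and 0.014 to 0.033 for clock genes. Genes near 0 changed sign when libraries were left out: Gadd45g (-0.27 to 0.038), Per1 (-0.14 to 0.11), Per2 (-0.00484 to 0.10), Dbp (-0.097 to 0.057), Nr1d1 (-0.013 to 0.064), Tsc22d3 (-0.034 to 0.16), Cdkn1a (-0.16 to 0.29), Bdnf (-0.041 to 0.093), Pcsk1 (-0.019 to 0.073), Vgf (-0.15 to 0.10), Scg2 (-0.016 to 0.080), Slc6a11 (-0.17 to 0.011), Gad1 (-0.010 to 0.13), Rps16 (-0.485 to 0.013), Rpl26 (-0.32 to 0.026) and Snhg11 (-0.0073 to 0.30). On the given strand only, the CRE core was in 1992 genes tested and in 2 of the 3 lower genes. Fos rested on 61 to 65 reads per library at 4 h, which limits its precision.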

Other observations

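The footprint change with the smallest adjusted p for a difference from its RNA change belonged to D4Wsu53e, named here after its values were seen. Its footprint signal was 4.34 ± 0.112 at 30 min and 2.52 ± 0.0823 at 4 h (SD, n = 3), a log2 change of -0.76. Its RNA signal was 2.07 ± 0.233 and 1.87 ± 0.280, a log2 change of -0.14. The footprint change minus the RNA change was -0.62 (SE 0.112), with limma adjusted p = 0.0571, and it did not pass.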
